A study of Rattus norvegicus with 62 samples.

Results

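Hearts of male Wistar rats given 80 mg/kg rosiglitazone by mouth daily during 14 days were compared between 6 h and 24 h after the last dose. The samples were chosen by their titles, which gave 5 arrays at 6 h (replicates 1, 2, 4, 5 and 6) and 5 at 24 h (replicates 2, 3, 4, 5 and 6), 10 of the 62 arrays in the series. The same interval was measured in rats given vehicle (4 arrays at 6 h, 6 at 24 h) and in rats given 10 mg/kg (5 and 5), also during 14 days, and all 3 doses were also sampled 168 and 336 h after the last dose. Each array carried total RNA of cardiac muscle that had been placed in RNAlater, a solution that keeps RNA intact. The labels name no separate animals and no clock hour of killing, so the p-values reflect only how far these samples spread, and time since the last dose and hour of the day cannot be told apart. In whole tissue, fewer cells of a type and less RNA per cell cannot be told apart either.

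Rosiglitazone is a thiazolidinedione, a glucose-lowering drug that activates PPAR gamma, a nuclear receptor of fat cells that is also present in the capillary lining of the heart. Heart muscle carries its own circadian clock. In it BMAL1 pairs with CLOCK or NPAS2 on E-boxes to switch on the Per and Cry repressors, the nuclear receptors NR1D1 and NR1D2 (REV-ERB alpha and beta), the DEC repressors BHLHE40 and BHLHE41 and the output factors DBP, TEF and HLF. NR1D1 and NR1D2 in turn repress Bmal1 through ROR elements, so that Bmal1 and the E-box genes run in opposite phase over the day.

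Few probe sets passed the test between 6 h and 24 h at 80 mg/kg. Of 18625 probe sets tested with limma, 24 (0.129%) passed an adjusted p of 0.05, 11 higher at 24 h (0.0591%) and 13 lower (0.0698%), and 22 of them named a gene. Higher at 24 h were Slc41a3, Bmal1, Nppb, Lsm11, Adam19, Gstcd, Tm4sf1, Asb2 and Slc38a2 and 2 probe sets with no gene listed. Lower at 24 h were Rhobtb1, P2ry1, Rapgef5, Coq10b, Noct, Gpcpd1, Tsc22d3, Tnrc6a, Aqp1, Palldl1, Fam76a, Fam43a and LOC102546572. The called differences ran from a fall by 1.26 to a rise of 1.26 on the log2 scale. Before adjustment 1438 probe sets (7.72%) had p under 0.05, 589 higher (3.16%) and 849 lower (4.56%). In 22 of the 24 called probe sets the 5 arrays of 6 h and the 5 of 24 h did not overlap, against 247 (1.33%) of all tested. The exceptions were Aqp1 and a probe set with no gene listed. The calls were made on these same arrays, so the separation largely follows from the call and is no added support.

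The balance of rises and falls depended on the scale. The arrays of 24 h were dimmer as deposited, with a trimmed mean signal of 118 to 177 against 169 to 232 at 6 h (difference in log2 −0.45, exact two-sided permutation test p = 0.0159, adjusted over 5 quality measures 0.0795, smallest possible 0.00794). Without normalization between arrays the median probe set differed by −0.435 (log2) and 4 were called, 0 higher and 4 lower, and with arrays scaled by their medians it was −0.1 and 17 were called, 1 higher and 16 lower. All differences given here are log2, 24 h minus 6 h, after quantile normalization, so each is read against the bulk of the probe sets. On the deposited scale the medians of all 36 gene lists described here were below 0. The 3′ minus 5′ differences of the actin, Gapdh and hexokinase control probe sets, which grow as RNA degrades, were −0.21, 0.07 and −1.08 from 6 h to 24 h (exact two-sided permutation p = 0.151, 0.127 and 0.151), and with the hexokinase difference as a covariate 34 probe sets were called, 18 of them among the 24. The muscle markers of the ventricle were bright at both times (Myl2 13.65 and 13.71 in log2 signal).

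Atrial muscle was unevenly present. The atrial myosin light chain Myl7 read 6.73, 12.09, 11.91, 6.84 and 6.36 (log2 signal, in replicate order) at 6 h and 12.86, 7.56, 12.94, 12 and 7.59 at 24 h. Thus 2 of 5 arrays at 6 h and 3 of 5 at 24 h lay above 9, of 10 such arrays among the 62, and the groups overlapped (difference 1.81, exact two-sided permutation p = 0.222). Of the atrial list 11 of 13 markers were measured, 7 higher and 4 lower at 24 h and 0 called, none with a level of 0, and their summed log2 level was 12.98 to 14.54 at 6 h and 13.07 to 15.05 at 24 h. Without the high-Myl7 arrays, which leaves 3 against 2, limma called 5 probe sets, 1 of them (Slc41a3) among the 24. With Myl7 as a covariate it called 25, of which 20 were among the 24. At 10 mg/kg the imbalance ran the other way. Myl7 there averaged 10.07 (6.08 to 12.22) at 6 h and 8.06 (7.59 to 8.71) at 24 h. In vehicle it averaged 8.05 (5.49 to 12.29) and 7.30 (6.67 to 7.97). The time changes at these doses, used below for comparison, therefore also carry a difference in Myl7 level, larger at 10 mg/kg.

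Within the clock's core loop, Bmal1 rose. Its log2 signal was 5.78, 4.05, 4.41, 5.89 and 5.32 in the 6 h arrays and 6.0, 6.35, 6.07, 6.99 and 6.32 in those of 24 h. All 24 h arrays lay above all 6 h arrays, and the 2 lowest values were the high-Myl7 arrays of 6 h. The rise was 1.26 (SE 0.27, adjusted p = 0.0311), a 2.39-fold higher signal. It was 0.67 without the high-Myl7 arrays and 1.42 with Myl7 as a covariate. In 6 of 12 other settings Bmal1 was not called (limma adjusted p up to 0.708). These were signals as deposited, median scaling, no filter on low signals, only the arrays compared, array weights and the high-Myl7 arrays left out. The call was lost without 6 h replicate 2, 4 or 6 or 24 h replicate 5 or 6 (rise 1.0 to 1.46 over all single omissions, adjusted p up to 0.159).

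The Bmal1 promoter is shown for its match to the ROR element, the site class through which NR1D1 acts, and the Per2 promoter for its D-box and its variant E-box. Both were read from RefSeq on build GRCr8, from 250 bases before to 50 bases after the start of the gene, Bmal1 at chr1:176766078-176766377 on the plus strand and Per2 at chr9:99496944-99497243 on the minus strand, with motif matches in capitals.
Bmal1: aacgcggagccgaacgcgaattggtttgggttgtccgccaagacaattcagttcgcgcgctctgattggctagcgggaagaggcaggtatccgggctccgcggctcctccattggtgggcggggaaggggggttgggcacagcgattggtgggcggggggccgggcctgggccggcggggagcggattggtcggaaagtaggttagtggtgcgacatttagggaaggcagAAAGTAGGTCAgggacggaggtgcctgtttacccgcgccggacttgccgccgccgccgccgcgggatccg
Per2: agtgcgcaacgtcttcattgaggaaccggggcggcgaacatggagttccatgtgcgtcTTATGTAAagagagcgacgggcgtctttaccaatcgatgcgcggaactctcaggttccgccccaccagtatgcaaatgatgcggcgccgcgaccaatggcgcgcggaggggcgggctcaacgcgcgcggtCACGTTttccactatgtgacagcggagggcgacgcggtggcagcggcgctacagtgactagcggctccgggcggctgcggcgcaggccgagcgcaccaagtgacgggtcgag
Motifs were searched on both strands. The ROR element was found in 0.36% of 33469 rat promoters of this length, the D-box TTATGTAA in 0.89%, the E-box CACGTG in 6.42% and the variant E-box CACGTT in 4.83%. In Bmal1 the ROR element began 20 bases before the start, and in Per2 the variant E-box began 62 and the D-box 192 bases before it. Among the 22 called genes, all with a promoter in the table, the E-box was found in Asb2, Slc41a3, Rhobtb1 and LOC102546572, the variant E-box in Tm4sf1 and Fam76a, the D-box in Coq10b and Fam76a and the ROR element in Bmal1. A match is a description of these letters and not evidence of a bound site.

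The partners of BMAL1 had higher values at 24 h without passing the test. Npas2 read 5.47, 4.30, 4.72, 5.79 and 2.42 at 6 h and 6.48, 6.56, 6.29, 6.08 and 6.48 at 24 h. The groups did not overlap, but the 6 h arrays were widely spread, and the difference of 1.84 (SE 0.54) had an adjusted p of 0.207. Clock differed by 0.46 (SE 0.12, adjusted p = 0.121), and its 2 other probe sets by 0.29 and 0.18.

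Per2 was the repressor with the largest difference. It read 8.04, 8.26, 8.28, 8.10 and 8.50 at 6 h and 6.89, 7.10, 7.04, 5.78 and 6.93 at 24 h. No array overlapped and 24 h replicate 5 was the lowest, but the difference of −1.49 (SE 0.36) had an adjusted p of 0.0768. Per1 differed by −1.12 (adjusted p = 0.61), Cry2 by −0.63 (0.479) and Cry1 by −0.20 (0.868), with overlapping groups.

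The nuclear receptors of the loop differed in sign. Nr1d1 read 8.63, 8.52, 8.03, 8.82 and 7.57 at 6 h and 9.16, 8.74, 9.71, 9.47 and 10.06 at 24 h. Its difference was 1.11 (SE 0.34, adjusted p = 0.237), with 1 array of 24 h inside the 6 h range. Nr1d2 differed by −0.33 (adjusted p = 0.763), with like values from its other 2 probe sets (−0.31 and −0.35).

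Among output factors none passed. Bhlhe40, the DEC1 repressor, was nearly uniform at 6 h (6.41, 6.56, 6.44, 6.39 and 6.43) and higher in every array at 24 h (7.21, 7.96, 7.92, 7.46 and 8.32). Its difference of 1.33 (SE 0.31) had an adjusted p of 0.0557, which passed under 3 of 12 other settings and reached 0.213 in another, and ran from 0.0459 to 0.186 with 1 array left out. Hlf differed by −0.77 (SE 0.19, adjusted p = 0.0855), again without overlap, and its 2 other probe sets by −1.35 and −1.58 (adjusted p = 0.121 and 0.0545). Dbp read 9.21, 9.63, 9.20, 9.42 and 8.62 at 6 h and 8.64, 8.56, 8.55, 8.77 and 8.74 at 24 h, so that the lowest 6 h array lay within the 24 h range (difference −0.56, SE 0.29, adjusted p = 0.674). Tef differed by −0.36 and Nfil3 by 0.19, and the second probe set of Tef had the opposite sign (0.67, adjusted p = 0.815).

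Counted as lists, with the brightest probe set for each gene, 12 core clock genes were measured, of which 1 was called, 7 (58.33%) had p under 0.05 before adjustment and the median difference was −0.02. Of 12 output factors 0 were called, 5 (41.67%) had p under 0.05 and the median was −0.23. Over all 10557 genes the corresponding share was 8.402% and the median −0.01, with 4889 higher at 24 h, 5668 lower and 22 called. Per3 and Ciart had no usable probe set.

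**Figure D1:**
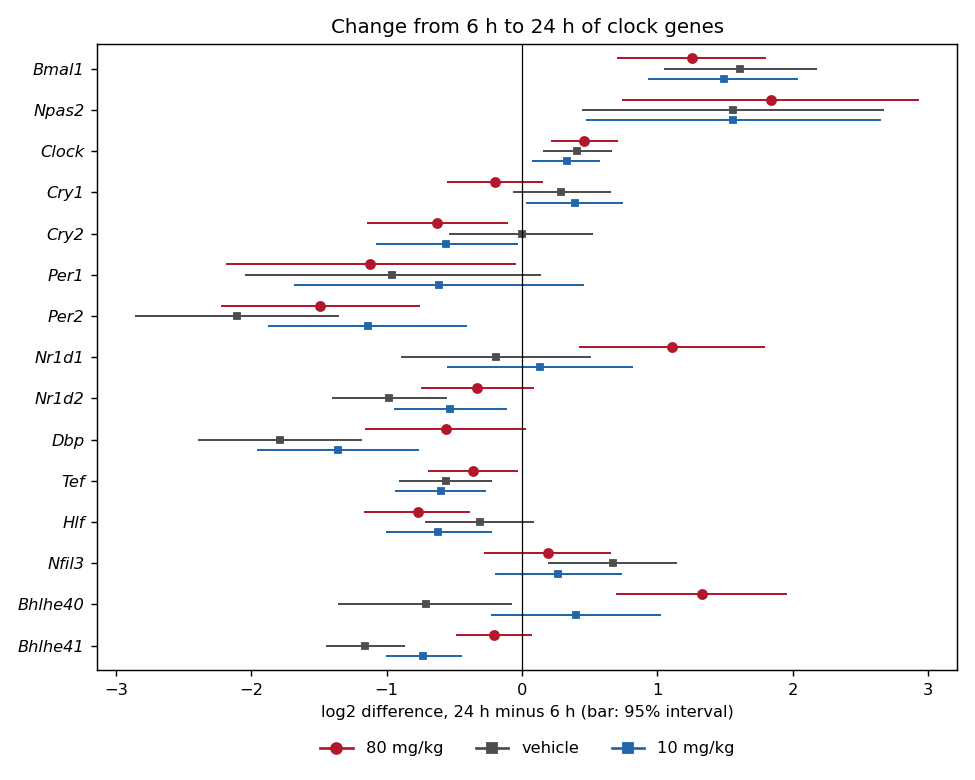
Log2 difference (24 h minus 6 h) with its 95% interval for 15 clock genes at 80 mg/kg (circles), in vehicle hearts and at 10 mg/kg (squares). Bmal1 lies at 1.26, 1.61 and 1.49, while Dbp lies at −0.56 at 80 mg/kg against −1.79 and −1.36, and Bhlhe40 at 1.33 against −0.71 and 0.40.

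The other doses had further clock genes past the threshold, among 42 probe sets called in vehicle (0.226%) and 19 at 10 mg/kg (0.102%). Vehicle hearts were called for Bmal1 (1.61), Per2 (−2.11, adjusted p = 0.00129), Dbp (−1.79, adjusted p = 0.000741), Bhlhe41 (−1.16, adjusted p = 9.4e-07) and Nr1d2 (−0.98, adjusted p = 0.0154). Hearts at 10 mg/kg were called for Bmal1 (1.49), Dbp (−1.36), Bhlhe41 (−0.73) and a second probe set of Clock (0.66, with 0.54 in vehicle and 0.29 at 80 mg/kg, neither called). Bhlhe41, the DEC2 repressor, read 9.06, 9.06, 8.89, 9.03 and 8.92 at 6 h of 80 mg/kg and 8.87, 8.90, 8.62, 8.89 and 8.64 at 24 h. That is a difference of −0.21 (SE 0.14, adjusted p = 0.788), and the groups overlapped narrowly.

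The test of a difference between doses passed for no probe set. For the time change at 80 mg/kg minus that in vehicle 0 probe sets (0%) were called and 1834 (9.85%) had p under 0.05. The latter count was 763 with the hexokinase difference as a covariate and 6836 on the deposited scale. With 1 array left out it ran from 1187 (vehicle 6 h replicate 6) to 2594 (vehicle 6 h replicate 3). For 80 minus 10 mg/kg 0 (0%) were called and 617 (3.31%) had p under 0.05, the smallest adjusted p being 0.627. The smallest p-values against vehicle were those of Adamts4 (−2.51), Bhlhe41 (0.95), Baz1b (−0.80) and Bhlhe40 (2.04). Their adjusted p was 0.114 for the first pair and 0.128 for the second. Adamts4, a metalloprotease of the matrix, owed most of its value to vehicle hearts, where it rose by 1.98. At 80 mg/kg it gave −0.53 (adjusted p = 0.799). Its mean log2 signal in vehicle at 6 h was 3.42, below the level used to filter out low signals. Baz1b gave −0.45 at 80 mg/kg, but its other probe sets gave −0.20 and 0.03 there. For Dbp the difference from vehicle was 1.22 (adjusted p = 0.382) and for Nr1d1 1.31 (adjusted p = 0.404). Against 10 mg/kg the smallest were Rasl12 (−0.83, adjusted p = 0.627), Aqp1 (−0.74, adjusted p = 0.842) and Gimap6 (−0.67, adjusted p = 0.861).

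Levels at the later times placed the 24 h hearts of 80 mg/kg apart from 168 and 336 h for these genes. Dbp at 80 mg/kg was 9.22 ± 0.38, 8.65 ± 0.10, 6.59 ± 0.75 and 6.37 ± 0.22 (mean ± SD of log2 signal at 6, 24, 168 and 336 h; n = 5, 5, 6 and 5), against 9.08, 7.29, 7.0 and 7.12 in vehicle. Its lowest 24 h array (8.55) lay above the highest at 168 h (7.29). Bhlhe41 gave 8.99 ± 0.08, 8.78 ± 0.14, 7.64 ± 0.28 and 7.5 ± 0.19 in that order, against 9.04, 7.89, 7.75 and 7.98 in vehicle. For both genes the 24 h hearts of 80 mg/kg were near those of 6 h, and in vehicle near those of 168 h. At 10 mg/kg Dbp was 9.34, 7.98, 6.57 and 6.65 and Bhlhe41 9.07, 8.35, 7.52 and 7.65 in that order. The 24 h means of 10 mg/kg thus also lay above those of 168 and 336 h, so this trait was not particular to 80 mg/kg.

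Bmal1 ran the other way, at 5.09 ± 0.82, 6.35 ± 0.39, 7.55 ± 0.30 and 7.64 ± 0.17 at 80 mg/kg against 5.74, 7.36, 7.41 and 7.37 in vehicle. Hearts at 10 mg/kg gave 5.30, 6.78, 7.41 and 7.66. The highest 24 h array of 80 mg/kg (6.99) lay below the lowest of 168 h (7.23). Nr1d1 and Bhlhe40 had their highest mean of the 4 times at 80 mg/kg at 24 h, at 9.43 ± 0.51 and 7.77 ± 0.44. Their highest means at 10 mg/kg were also those of 24 h (8.87 and 7.19). In vehicle Nr1d1 was highest at 336 h (8.83) and Bhlhe40 at 6 h (7.05). These levels describe the hearts and were not tested between 24 h and the later times.

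**Figure D2:**
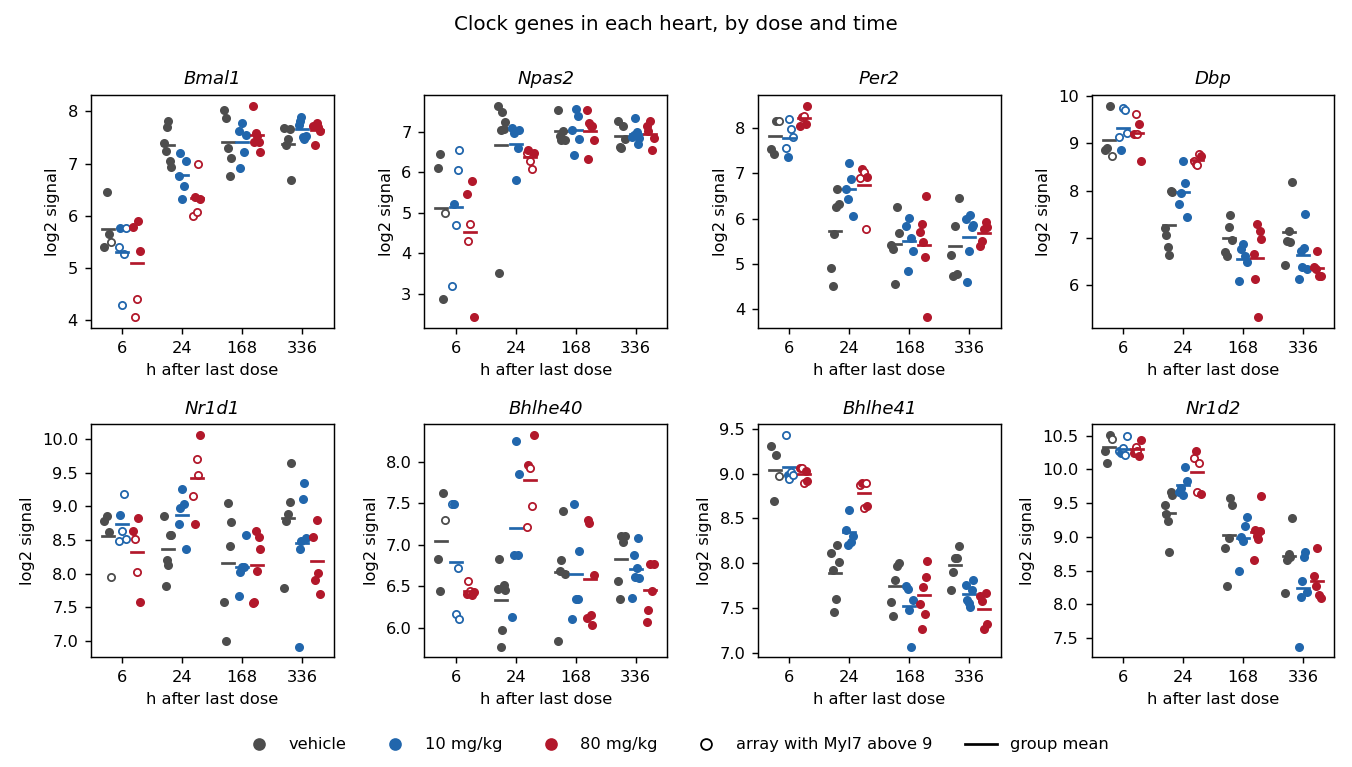
Log2 signal of 8 clock genes in each heart (points) with group means (lines), by hours after the last dose and by dose; open points are arrays with a Myl7 signal above 9. At 24 h the 80 mg/kg hearts have a mean of 8.65 for Dbp and 6.35 for Bmal1, against 7.29 and 7.36 in vehicle hearts.

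Outside the clock, Slc41a3, a member of a magnesium transporter family, had the smallest p-value. It read 8.43, 8.50, 7.89, 8.95 and 8.11 at 6 h and 9.46, 9.55, 9.58, 9.70 and 9.67 at 24 h. Every 24 h array lay above every 6 h array. The rise was 1.22 (95% interval 0.96 to 1.48, 2.33-fold, adjusted p = 1.26e-08), and it was 1.12 without the high-Myl7 arrays (adjusted p = 0.00055). Vehicle hearts rose by 0.80 and 10 mg/kg hearts by 0.86, both called, and the difference between 80 mg/kg and vehicle was 0.41 (adjusted p = 0.461).

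Coq10b, a coenzyme Q-binding protein of mitochondria, fell. It read 8.58, 8.63, 8.78, 8.78 and 9.19 at 6 h and 7.98, 8.21, 7.84, 7.78 and 7.81 at 24 h, with no overlap. The fall was by 0.87 (SE 0.13, adjusted p = 4.48e-05). Vehicle hearts gave −0.17 and 10 mg/kg hearts −0.40, neither called, and the difference between 80 mg/kg and vehicle was −0.70 (adjusted p = 0.218).

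Promoters of Slc41a3 (chr4:124684717-124685016, plus strand), Coq10b (chr9:64047918-64048217, plus strand) and Bhlhe40 (chr4:143174200-143174499, plus strand) are shown because Slc41a3 and Bhlhe40 hold an E-box and Coq10b a D-box (capitals; RefSeq, GRCr8).
Slc41a3: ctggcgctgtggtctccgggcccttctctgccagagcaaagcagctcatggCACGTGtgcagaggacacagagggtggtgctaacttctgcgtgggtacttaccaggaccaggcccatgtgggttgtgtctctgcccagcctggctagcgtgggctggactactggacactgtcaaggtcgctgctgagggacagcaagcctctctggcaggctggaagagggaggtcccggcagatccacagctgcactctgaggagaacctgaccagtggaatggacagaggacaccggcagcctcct
Coq10b: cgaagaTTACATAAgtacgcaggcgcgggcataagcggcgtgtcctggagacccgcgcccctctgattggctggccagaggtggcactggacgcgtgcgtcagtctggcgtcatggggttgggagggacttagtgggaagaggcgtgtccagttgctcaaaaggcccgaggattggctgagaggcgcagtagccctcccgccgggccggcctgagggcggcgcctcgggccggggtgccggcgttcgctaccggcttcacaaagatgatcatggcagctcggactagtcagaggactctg
Bhlhe40: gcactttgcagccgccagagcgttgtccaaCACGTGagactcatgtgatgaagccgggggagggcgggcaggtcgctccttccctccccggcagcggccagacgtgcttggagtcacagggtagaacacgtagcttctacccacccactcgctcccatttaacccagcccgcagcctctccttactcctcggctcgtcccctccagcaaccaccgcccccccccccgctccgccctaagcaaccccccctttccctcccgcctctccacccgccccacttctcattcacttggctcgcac
The first bases of these motifs lay 199, 244 and 220 bases before the start, and the D-box of Coq10b is on the opposite strand.

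Rapgef5, an exchange factor that activates Rap GTPases, read 8.84, 9.21, 9.28, 8.91 and 9.37 at 6 h and 8.23, 8.43, 8.15, 8.19 and 8.03 at 24 h. It fell by 0.92 (SE 0.13, adjusted p = 4.48e-05) without overlap, against −0.42 in vehicle and −0.54 at 10 mg/kg, which did not pass. Rhobtb1 had the largest fall among the called genes. It went from 10.18, 10.04, 10.00, 9.74 and 10.08 to 8.15, 8.75, 8.71, 8.82 and 9.30 (difference −1.26, SE 0.25, adjusted p = 0.00943), and it also fell in vehicle (−1.10, adjusted p = 0.0311).

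Adam19, a membrane-anchored metalloproteinase, rose from 8.81, 9.03, 9.06, 9.01 and 8.57 to 9.49, 9.17, 9.54, 9.75 and 9.46. The rise of 0.59 (adjusted p = 0.00409) stood beside a called rise of 0.58 in vehicle, and its second probe set gave 0.26. Tm4sf1, a surface protein abundant in endothelium, rose from 8.36, 8.65, 8.60, 8.47 and 8.59 to 9.35, 9.20, 9.18, 8.87 and 8.70. Its rise of 0.53 (adjusted p = 0.00409) compares with 0.13 in vehicle and 0.19 at 10 mg/kg (difference from vehicle 0.40, adjusted p = 0.382). On the deposited scale the rises of Adam19 and Tm4sf1 were 0.10 and 0.07 and were not called. Of 11 measured endothelial markers 2 were higher, 9 lower and 0 called.

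Slc41a3, Coq10b, Rapgef5, Adam19, Tsc22d3, Tm4sf1, Fam76a and Rhobtb1 kept their call with any 1 of the 10 arrays left out. Each of the other 16 probe sets lost it without at least 1 array. Of the 24 calls 9 remained without 6 h replicate 6, 10 without 6 h replicate 4 or 24 h replicate 6, 12 without 6 h replicate 2, 14 without 24 h replicate 4, 16 without 24 h replicate 2 or 5, 17 without 6 h replicate 1, 21 without 24 h replicate 3 and 23 without 6 h replicate 5.

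**Figure D3:**
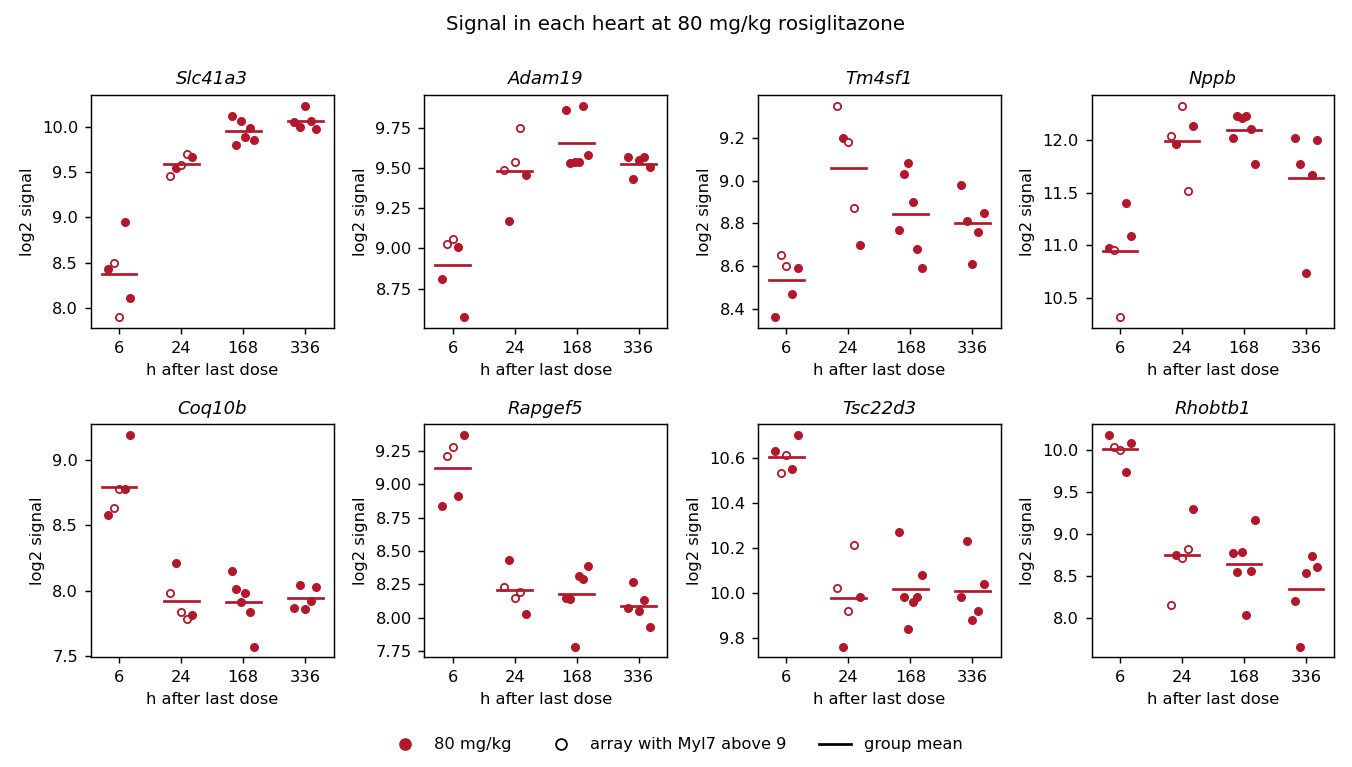
Log2 signal of 8 called genes in each heart of 80 mg/kg (points) with group means (lines), by hours after the last dose; open points are arrays with a Myl7 signal above 9. For Slc41a3 the mean rises from 8.37 at 6 h to 9.59 at 24 h and stands at 9.96 and 10.07 at 168 and 336 h; Coq10b and Rapgef5 are high at 6 h only.

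For most called genes the later times lay nearer to 24 h than to 6 h. At 80 mg/kg the mean at 168 h lay nearer to the 24 h than to the 6 h mean in 23 of 24 probe sets, all but Fam43a, and at 336 h in 22, all but Fam43a and Noct. The same count was not made over all probe sets or at the other doses. It therefore describes the called probe sets and does not set them apart. Like 24 h, the later times are whole days after the last dose, while 6 h is not. Time since the last dose and hour of the day cannot be told apart here either. Coq10b stood at 8.79 ± 0.24, 7.92 ± 0.18, 7.91 ± 0.20 and 7.94 ± 0.09 at 6, 24, 168 and 336 h. Its vehicle levels at 6 and 24 h were 8.35 ± 0.12 and 8.18 ± 0.24. P2ry1, an ADP receptor, stood at 6.94 ± 0.31 at 6 h of 80 mg/kg and at 5.89 ± 0.31 at 24 h (difference −1.05, adjusted p = 0.0289), while vehicle hearts were at 6.13 ± 0.49 and 6.01 ± 0.34. For Coq10b and P2ry1 the 6 h arrays of 80 mg/kg lay above all vehicle arrays of 6 h. The lowest was 8.58 against a highest vehicle array of 8.44 for Coq10b, and 6.58 against 6.53 for P2ry1. Rhobtb1 (9.74 against 9.63) and Tnrc6a (7.32 against 7.30) also lay above, and Gstcd lay below (highest 7.20 against a lowest of 7.44). The 10 mg/kg arrays of 6 h reached 8.62 for Coq10b and 6.66 for P2ry1, so they overlapped those of 80 mg/kg. Such separation was not counted over all probe sets. These genes were called on these same 6 h arrays, so this is a description and no test against vehicle.

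Among genes known to respond to glucocorticoids and FoxO factors, Tsc22d3 (GILZ, a leucine zipper protein induced by glucocorticoids) fell. It was tightly grouped at 10.63, 10.53, 10.61, 10.55 and 10.70 at 6 h and at 10.02, 9.76, 9.92, 10.21 and 9.98 at 24 h. The fall was by 0.63 (SE 0.11, adjusted p = 0.00409), with −0.47 in vehicle and −0.29 at 10 mg/kg, neither called. Of 20 measured members of that list 13 were lower and 7 higher at 24 h, and 1 was called. With p under 0.05 were 8 lower and 2 higher members (50%, against 8.402% of all genes). The median was −0.34, against −0.18 in vehicle and −0.05 at 10 mg/kg. Members below the threshold included Pdk4, the kinase that restrains glucose oxidation (−0.93, adjusted p = 0.135), and Fkbp5, a glucocorticoid receptor co-chaperone (−0.55, adjusted p = 0.516), while Klf15 gave 0.34 (adjusted p = 0.575).

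Noct, the deadenylase-like protein nocturnin whose RNA cycles over the day, fell from 7.66, 7.85, 8.44, 7.68 and 8.40 to 6.67, 7.33, 7.49, 7.21 and 7.45 (difference −0.78, SE 0.17, adjusted p = 0.0353). Its later means were 7.47 ± 0.22 at 168 h and 7.87 ± 0.20 at 336 h, and vehicle hearts gave −0.17. The call was lost without 6 h replicate 2, 4 or 6 or 24 h replicate 2 or 5 (adjusted p up to 0.159).

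Of the immediate early genes 20 were measured, 15 lower and 5 higher at 24 h, 0 called. With p under 0.05 were 6 lower and 1 higher (35%, against 8.402% of all genes), and the median was −0.29 (0.03 in vehicle). Fos had a wide spread, 7.01, 6.80, 8.0, 8.93 and 9.26 at 6 h and 5.97, 7.48, 5.37, 7.03 and 6.55 at 24 h, with a difference of −1.52 (SE 0.68, adjusted p = 0.55). Nr4a1 gave −0.79 (adjusted p = 0.595), with its 3 highest values at 6 h in replicates 4, 5 and 6.

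Nppb, which encodes the wall-stress hormone BNP, rose. It read 10.98, 10.96, 10.32, 11.40 and 11.09 at 6 h and 12.03, 11.96, 12.32, 11.51 and 12.13 at 24 h. The groups did not overlap. The rise was 1.04 (SE 0.23, 2.05-fold, adjusted p = 0.0386), and it was 0.89 without the high-Myl7 arrays (adjusted p = 0.537) and 1.08 with Myl7 as a covariate. Vehicle hearts gave −0.20 and 10 mg/kg hearts −0.04; the difference from vehicle was 1.24 (adjusted p = 0.305) and from 10 mg/kg 1.08 (adjusted p = 0.999). The call of Nppb was lost without any 1 of 8 arrays, 6 h replicates 1, 2, 4 and 6 and 24 h replicates 2, 3, 4 and 6 (adjusted p up to 0.181).

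By level, Nppb at 80 mg/kg was 10.95 ± 0.39 at 6 h, 11.99 ± 0.30 at 24 h, 12.09 ± 0.18 at 168 h and 11.64 ± 0.53 at 336 h. Vehicle hearts had 11.73 ± 0.39, 11.53 ± 0.29, 11.68 ± 0.18 and 11.14 ± 0.50. The 6 h hearts of 80 mg/kg were thus the lower ones at 6 h, and those of 24 h the higher ones at 24 h, with overlap in both. The atrial hormone Nppa gave 9.53, 13.01, 12.86, 10.69 and 10.16 against 13.55, 9.93, 13.59, 12.73 and 10.79, high in the same arrays as Myl7 (difference 0.87, adjusted p = 0.819, and −0.06 with Myl7 as a covariate). In the fetal gene program 14 of 15 measured genes were higher at 24 h, 1 of them called and 2 with p under 0.05 (13.33%, against 8.402% of all genes), with a median of 0.25 (−0.05 on the deposited scale).

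Aqp1, the water channel of capillary endothelium, fell. It read 10.74, 11.01, 10.99, 10.64 and 10.59 at 6 h and 9.65, 10.27, 10.25, 10.16 and 10.83 at 24 h. Replicate 6 of 24 h lay within the 6 h range. The fall was by 0.56 (SE 0.13, adjusted p = 0.0385), and the difference was −0.10 without the high-Myl7 arrays (adjusted p = 0.962) and −0.57 with Myl7 as a covariate (adjusted p = 0.0511). The call was also lost without any 1 of 7 arrays, 6 h replicates 1, 2, 4 and 6 and 24 h replicates 2, 4 and 5. The second Aqp1 probe set gave −0.37 (adjusted p = 0.854).

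Vehicle hearts gave 0.09 and 10 mg/kg hearts 0.18 for Aqp1. Its level at 80 mg/kg was 10.79 ± 0.20, 10.23 ± 0.42, 9.69 ± 0.07 and 9.67 ± 0.20 over the 4 times, so that the arrays of 168 and 336 h lay at or below 9.86, under all but 1 array of 24 h. Vehicle hearts had 10.95, 11.04, 10.95 and 11.37.

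The genes through which lipid enters heart cells showed little. Of 17 measured members of that list 6 were higher, 11 lower and 0 called, with a median of −0.03. Fabp4, a fatty acid chaperone of capillaries and fat cells and a known PPAR gamma target, gave −0.41 (SE 0.14, adjusted p = 0.33), Cd36, the fatty acid translocase, −0.18 and lipoprotein lipase Lpl −0.10. Rbp7 (−0.07) and Gpihbp1 (0.08) changed sign under some other settings. In PPAR alpha targets of the fasting type 12 of 18 were lower with a median of −0.05, and in fatty acid oxidation 18 of 24 with a median of −0.05, 0 called in both.

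Of white adipocyte markers 5 of 11 were measured, adiponectin and perilipin not among them, 4 lower and 0 called, with a summed log2 level of 8.89 to 9.13 at 6 h and 8.65 to 9.12 at 24 h.

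Other called genes had smaller differences. Slc38a2, a transporter of neutral amino acids, rose by 0.35 (adjusted p = 0.0289; −0.12 on the deposited scale), Asb2, a subunit of a muscle ubiquitin ligase, by 0.49, and Gstcd by 0.58. Lsm11, a protein of the U7 particle that processes histone RNA, rose by 0.60 while its second probe set gave −0.16. Gpcpd1, a glycerophosphocholine phosphodiesterase, fell by 0.70 and Tnrc6a, an argonaute partner in microRNA silencing, by 0.63, but their second probe sets were at −0.11 and 0.00. Palldl1, Fam76a, Fam43a and LOC102546572 fell by 0.55, 0.47, 0.45 and 0.44, and the second probe set of Fam76a gave −0.15. Rimbp2 (0.54, adjusted p = 0.0545) was next among the rises and did not pass.

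The remaining lists held no called gene. In the unfolded protein response 18 of 20 measured genes were lower at 24 h with a median of −0.19 (−0.03 in vehicle), and in the cell cycle list 14 of 19 with a median of −0.20 (−0.09 in vehicle). In the interferon list 17 of 21 were higher with a median of 0.20 (−0.10 in vehicle, and −0.22 at 80 mg/kg on the deposited scale). Ventricular markers were higher in 8 of 9 (median 0.11), and macrophage markers lower in 9 of 11 (median −0.24).

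Set beside the other doses, 8 of the 24 calls were also called in vehicle (33.33% of the 24, 19.05% of the 42 vehicle calls) and 6 at 10 mg/kg (25% of the 24, 31.58% of the 19 calls there). Bmal1, Slc41a3, Asb2 and Slc38a2 were called at all 3 doses. Of the 24, 19 had the same sign in vehicle, against 47.04% of all probe sets, and 22 at 10 mg/kg, against 57.99%. The opposite sign was found for Nppb, Aqp1, LOC102546572, Fam43a and Tnrc6a in vehicle and for Nppb and Aqp1 at 10 mg/kg. These comparisons share no arrays. The 10 mg/kg groups also differed in mean Myl7 level (10.07 at 6 h and 8.06 at 24 h).

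Across the 24 the median size of the change was 0.62 at 80 mg/kg, and the median change in the direction of 80 mg/kg was 0.42 in vehicle and 0.40 at 10 mg/kg. The 24 were chosen on the 80 mg/kg arrays, so the first of these values is raised by that choice. The test of the difference gave p under 0.05 for 12 of the 24 against vehicle (9.85% of all probe sets). Against 10 mg/kg it did so for 10 (3.31% of all), with 0 called in both. These counts are raised by the same choice, since both tests use the same 80 mg/kg arrays.

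**Figure D4:**
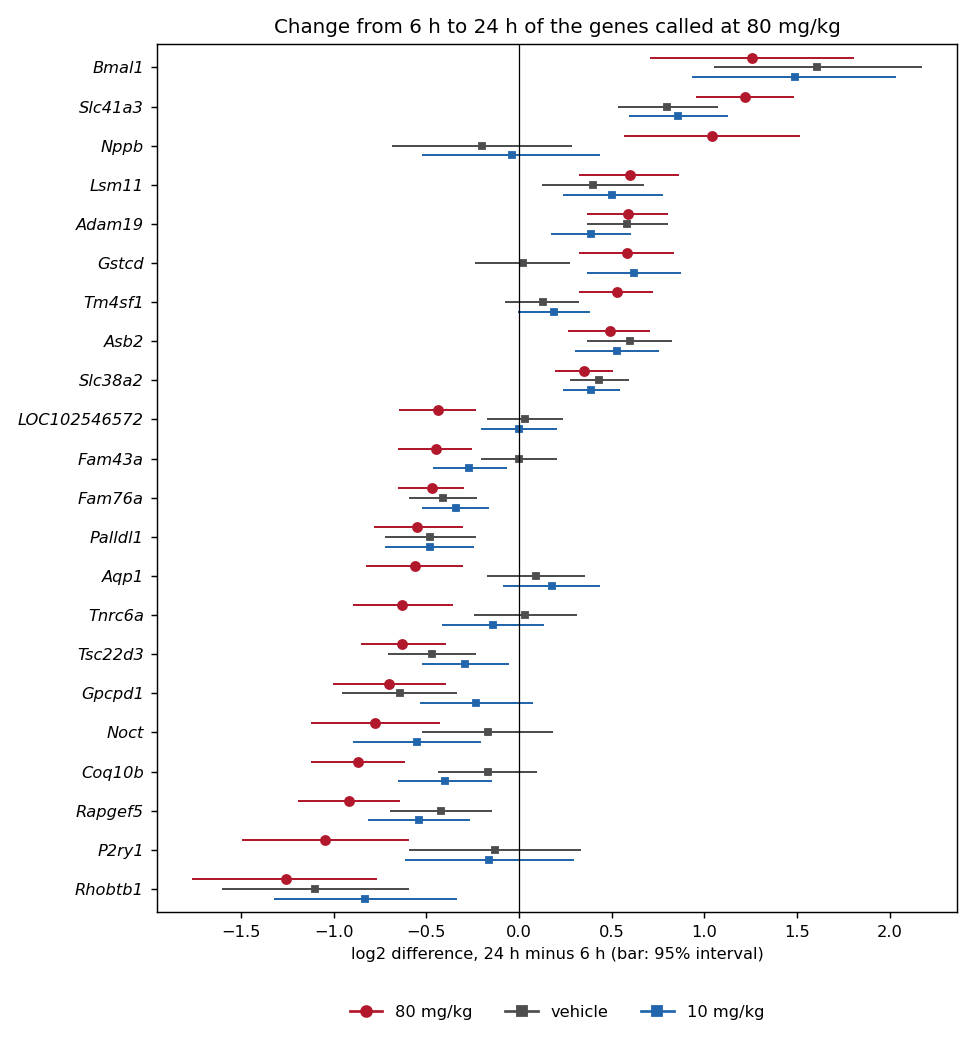
Log2 difference (24 h minus 6 h) with its 95% interval for the 22 named genes called at 80 mg/kg (circles), with the same difference in vehicle and at 10 mg/kg (squares). Slc38a2, Asb2, Adam19 and Rhobtb1 lie close together in vehicle and at 80 mg/kg, whereas Nppb (1.04 against −0.20) and Aqp1 (−0.56 against 0.09) lie on opposite sides of 0.

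Conversely, Bhlhe41, Dbp, G0s2, Tfrc and Sphk2 and 2 probe sets with no gene listed were called in vehicle and at 10 mg/kg but not at 80 mg/kg. G0s2, an inhibitor of the fat lipase ATGL, gave 0.56 (SE 0.18, adjusted p = 0.32) at 80 mg/kg against 1.29 in vehicle and 0.92 at 10 mg/kg. Sphk2, a sphingosine kinase, gave 0.57 (adjusted p = 0.0733) against 0.82 and 0.64. The transferrin receptor Tfrc gave 0.48 in both of its probe sets against 0.70 and 0.71 in vehicle. For these 3 genes the direction was the same at all doses.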

How the data were processed

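The authors deposited linear intensity signals for each probe set, made with GCOS and MAS5 per the submitters' processing notes; versions are not given in the sources used here. Signals were turned to log2 and quantile normalized between arrays, after 57 control probe sets were left out of 31099. Probe sets with a mean log2 signal at or above the 40th percentile (5.03) were kept (18625; 14260 with 1 gene, 338 with several, 4027 with none listed). Genes were named from the platform annotation, old symbols being checked in a RefSeq table.

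limma 3.58.1 in R 4.3.3 fitted 12 group means over 62 arrays (50 residual degrees of freedom). Contrasts were 24 h minus 6 h at each dose and their differences. P-values are two-sided and adjusted by Benjamini-Hochberg over all probe sets, and called means adjusted p under 0.05. No 2 arrays were identical. The script was tested on simulated data.

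Members, the 36 lists and the rule for named genes (called genes, filled by smallest p, and a set of clock, metabolic and cardiac genes) were chosen with earlier results of these data known; the genes called at other doses only were added after their values were seen. Lists were counted, not tested. The number of arrays limits the precision.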

Additional observations from a re-analysis of the deposited data

Results flagged for a closer look

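Of 120 groups of 5 arrays examined for a single value far from the other 4 (named genes and quality measures, where about 1 in 20, or 6.0, is flagged by chance), 3 stood out. Ucp3, an uncoupling protein of mitochondria, read 3.96 in 6 h replicate 2 of 80 mg/kg against 6.21 to 7.04 in the other arrays of that group. Per2 read 5.78 in 24 h replicate 5 against 6.89 to 7.10 in the others. The difference between 3′ and 5′ actin probe sets, a measure of RNA integrity, was 1.45 in 6 h replicate 1 against 0.83 to 0.92 in the others.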

How the results depend on the processing

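The count of 24 calls at 80 mg/kg moved with the processing. It was 4 for signals as deposited, 8 with no filter on low signals, 37 with a filter at the 60th percentile, 0 with the 10 arrays alone (1159 at unadjusted p under 0.05) and 5 without the high-Myl7 arrays; the other settings gave 17 to 36. Added after seeing the data, the hexokinase 3′ to 5′ difference as a covariate gave 34. Leaving out 1 array gave 10 to 38. Vehicle calls were 3 as deposited, 26 with no filter, 2 with only the arrays compared, 25 without the high-Myl7 arrays, 24 with the hexokinase covariate and 23 to 115 with 1 array left out. Calls at 10 mg/kg were 0, 6 with median scaling, 0 with only the arrays compared, 32 without the high-Myl7 arrays, 11 with the Myl7 covariate and 5 to 21 with 1 array left out. The difference from vehicle had 1 call as deposited, 1 with median scaling, 2 with array weights, 1 with the Myl7 covariate and 0 to 8 with 1 array left out; the difference from 10 mg/kg had 18 without the high-Myl7 arrays, where 1 array of 6 h at 10 mg/kg was left and was assumed to vary like the other groups, and 0 to 1 with 1 array left out. List members called numbered 3, against 7 with the mean of a gene's probe sets and 0 as deposited.

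Signs reversed as deposited for Slc38a2 (−0.12), Klf15 (−0.15), Nfil3 (−0.20) and Gpihbp1 (−0.40), with median scaling for Lpl (0.02) and Gpihbp1 (−0.07), with the array cluster as a block for Gpihbp1 (−0.01), without the high-Myl7 arrays for Cry1 (0.01), Gpihbp1 (−0.24) and Gimap6 (0.04), with the Myl7 covariate for Nppa (−0.06) and Gimap6 (0.01), with array weights for Rbp7 (0.10) and with the hexokinase covariate for Gimap6 (0.02). With 1 array left out Gpihbp1 ran from −0.02 to 0.24, Rbp7 from −0.37 to 0.13 and Gimap6 from −0.05 to 0.01. The causes were not tested.

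Replicate numbers 2, 4, 5 and 6 occur at both times, but their arrays did not deviate together (r = −0.10, 0.09, 0.21 and −0.17), so they were treated as unpaired. These few correlations cannot exclude a link between arrays of the same number. With the replicate number as a block 31 probe sets were called, the 24 among them.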
